A study of Mus musculus with 113 samples.

Results

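The genes of the translation initiation factors were followed in mouse preimplantation embryos in which nuclear receptor transcription factors had been knocked down or edited. Every gene symbol made of Eif and a digit from 1 to 6 was taken, without the kinases of eIF2α (Eif2ak symbols), which gave 51 of the 24006 gene symbols in the FPKM files. FPKM are fragment numbers corrected for the length of the transcript and the size of the library, and allow levels to be compared between genes. All 51 genes reached a mean of 1 FPKM in at least 1 of the 22 groups of libraries, and 46 of them did so in every group. They comprised 14 genes of eIF3 subunits, 11 of eIF4F and its helpers (*Eif4a1*, *Eif4a2*, *Eif4b*, the 4 *Eif4e* genes, the 3 *Eif4g* genes and *Eif4h*), 5 of eIF2B, 4 of eIF2, 4 of eIF1 and eIF1A, 4 of eIF4E-binding proteins, 5 of eIF5, eIF5A, eIF5B and eIF6, 2 of eIF2A and eIF2D, and 1 each of eIF4A3 and an eIF1A-domain protein.

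Translation begins when eIF2, loaded with GTP and the initiator tRNA, joins the small ribosomal subunit together with eIF1, eIF1A, eIF3 and eIF5. eIF2B recharges eIF2 with GTP, and phosphorylation of eIF2α blocks that step. The mRNA is brought in by eIF4F, which consists of the cap-binding protein eIF4E, the helicase eIF4A and the scaffold eIF4G. The 4E-BPs (*Eif4ebp1*, *Eif4ebp2* and *Eif4ebp3*) occupy the eIF4G site of eIF4E until mTOR phosphorylates them. Mouse embryos pass from translation of stored maternal mRNA to translation of their own transcripts around the 2-cell stage, and oocytes carry cap-binding relatives of eIF4E of their own, such as *Eif4e1b*. NR5A2, an orphan nuclear receptor that binds DNA mostly as a monomer, is among the factors active after this switch.

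Of 113 samples in the series, 92 with FPKM were used. The embryos came from C57BL/6N females and PWK/PhJ males according to the methods of the study, and all were wild type before injection into the zygote. In 4KD embryos, siRNAs to *Nr5a2*, *Rarg*, *Nr1h3* and *Nr2c2* were injected together at 5 µM each and were compared at 4C and 8C with embryos that received 20 µM of a negative control siRNA (NC). In 3KD embryos at 8C, 1 of the 4 siRNAs was left out and 3 were injected at 5 µM each (NC at 15 µM). Single KD embryos at 8C received 1 siRNA at 5 µM (NC at 5 µM), and *Nr5a2* KD embryos at 2C received 20 µM (NC at 20 µM). Each of these 16 groups had 2 libraries, each made from a pool of a few embryos. Another set of zygotes received base editor (BE) mRNA, an *Nr5a2* sgRNA or both, at 100 ng/µl each, and single embryos were sequenced at 2C and 8C, with 8, 8 and 14 embryos at each stage. BE alone and sgRNA alone were the controls. Column headers of some of these libraries name the editor, as eBE or BE4, which the labels do not separate. An siRNA lowers RNA without removing it, and an edited codon need not lower the RNA that carries it.

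The 92 libraries summed to 83392 to 556462 FPKM, with 5472 to 11921 genes at 1 FPKM or more and 43 to 50 of the 51 initiation factor genes at that level. The files hold no read counts. A relative depth read from the spacing of low FPKM values ran from 0.363 to 1.52 around a median of 1. In single embryos the median log2(FPKM + 1) of the initiation factor genes varied between libraries of a group with an SD of 0.621, against 0.186 in pools. The 4-cell stage is named in the column headers of 3 single embryo libraries, of which replicate 8 is labelled as a 2C embryo with sgRNA alone and replicates 13 and 14 as 8C embryos with BE + sgRNA. In the 2C one of these the summed FPKM of 7 maternal genes was 56.8, against 315 to 3746 in the other 2C controls, and values that move without these libraries are given both ways. Nothing in the labels says that libraries of a group came from separate days or matings, so that p-values measure the spread between these libraries, which may be technical.

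In 8C NC embryos of the single KD experiment, *Eif5a*, which helps the ribosome form difficult peptide bonds, was the most abundant initiation factor gene with 1872 ± 216 FPKM (SD, n = 2). *Eif3k* led the eIF3 genes with 595 ± 103 FPKM and *Eif4e* the eIF4F group with 545 ± 20.5 FPKM. *Eif2s2* led the eIF2 genes with 293 ± 2.64 FPKM, *Eif1ax* those of eIF1 and eIF1A with 228 ± 85.2 FPKM and *Eif2b1* those of eIF2B with 142 ± 19.2 FPKM. The most abundant gene of an eIF4E-binding protein was *Eif4ebp1* with 96.1 ± 31.9 FPKM, and *Eif2d* with 56.5 ± 1.74 FPKM was above *Eif2a*. No initiation factor gene was below 1 FPKM in every group.

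*Nr5a2* itself was checked first. In the 8C pools its level was 3.90 to 12.8 FPKM in the 10 libraries with *Nr5a2* siRNA and 27.1 to 50.2 FPKM in the 14 without it. The 4C pools had 26.8 and 31.7 FPKM in NC and 3.98 and 17.6 FPKM in 4KD embryos, and the 2C pools had 19.4 and 24.3 FPKM in NC and 2.72 and 6.13 FPKM in KD embryos. In every pooled experiment the libraries with *Nr5a2* siRNA lay below those without it, although replicate 2 of the 4C 4KD embryos kept more than the others. In BE + sgRNA embryos at 8C the RNA level of *Nr5a2* was 0.21 higher on the log2 scale than in controls. Edited reads were not analysed here.

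*Eif4e*, the cap-binding subunit of eIF4F, was the initiation factor gene that separated embryos with and without *Nr5a2* siRNA. It lies on the plus strand of mm9 chr3:138189155-138220563 with 8 exons in GENCODE vM1. RefSeq (GRCm38.p6) gives it 2 starts, 1077 bases apart, and the 250 bases before each were read from RefSeq promoter sequences and placed on mm9 by exact match. They are shown because NR5A2 recognises the letters CAAGGNCA, printed in capitals where they occur. The first window, mm9 chr3:138188905-138189154, ends at the base before exon 1 (138189155 to 138189258) and is intergenic in that annotation. The second, chr3:138189982-138190231, lies in intron 1 and ends at the base before exon 2, which starts at 138190232.
*Eif4e* upstream start: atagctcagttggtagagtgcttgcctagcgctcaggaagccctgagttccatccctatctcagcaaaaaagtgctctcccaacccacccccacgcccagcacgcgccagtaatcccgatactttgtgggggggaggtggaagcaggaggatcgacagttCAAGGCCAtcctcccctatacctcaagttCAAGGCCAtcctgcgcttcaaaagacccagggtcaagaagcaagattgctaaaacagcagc
*Eif4e* downstream start: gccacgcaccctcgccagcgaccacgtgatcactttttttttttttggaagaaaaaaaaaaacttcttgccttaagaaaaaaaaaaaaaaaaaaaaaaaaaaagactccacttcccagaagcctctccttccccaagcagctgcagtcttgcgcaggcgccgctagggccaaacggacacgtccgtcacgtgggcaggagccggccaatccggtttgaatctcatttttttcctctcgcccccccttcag
The upstream window held 2 copies of CAAGGCCA, starting 90 and 61 bases before its end, and the downstream window held no match to CAAGGNCA on either strand. Over 32851 windows of the same length from 27025 RefSeq genes, 6.33% of genes had a match to CAAGGNCA on either strand and 0.329% had at least 2. CAAGGCCA itself occurred in 2.32% of genes and CAAGGTCA in 1.51%. Of 39 initiation factor genes with a window, 3 had a match (*Eif4a2*, *Eif4e* and *Eif4h*). A match is a run of letters and not a measured binding site, and FPKM per gene do not say which start was used.

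*Eif4e* fell in *Nr5a2* KD embryos at 8C. It had 559 and 530.2 FPKM in the 2 NC libraries of the single KD experiment and 114 and 117 FPKM in *Nr5a2* KD embryos, a mean of 545 ± 20.5 against 116 ± 1.64 (SD, n = 2 each). The KD libraries were far below the NC libraries and almost equal to each other. The difference was -2.23 on the log2(FPKM + 1) scale (SE 0.323), a 4.68-fold lower level, at an adjusted p of 0.00561 in limma with Benjamini-Hochberg adjustment over 10163 genes. It was the only 1 of 48 initiation factor genes tested that was called at an adjusted p under 0.05, where 2.39% of all genes were called lower and 0.354% higher. *Eif3j1*, *Eif4e1b* and *Eif4e3* were below a mean of 1 FPKM in every group of this experiment and were not tested. The median difference was -0.22 for the initiation factor genes and -0.22 for all genes tested. With the libraries scaled to a common median ratio, these medians moved to 0.05 and 0.01, and the split of all calls moved from 36 higher and 243 lower to 90 higher and 207 lower (94 and 221 with quantile normalization). The *Eif4e* call rests on both NC libraries, since the adjusted p was 0.0814 without NC replicate 1 and 0.101 without NC replicate 2. An exact permutation test of 2 libraries against 2 cannot go below p = 0.333, and the limma p-values rest on a spread that is shared across genes. From pools of whole embryos, fewer cells of a type and less RNA per cell cannot be told apart.

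*Eif4e* did not pass the test in the other single KD embryos. *Rarg* KD embryos had 421 and 482 FPKM, *Nr1h3* KD embryos 582 and 503 FPKM, and *Nr2c2* KD embryos 679 and 379 FPKM. Their differences from NC were -0.27, -0.01 and -0.10 on the log2 scale (SE 0.323 each). Normal 95% intervals ran from -0.90 to 0.36, from -0.64 to 0.62 and from -0.73 to 0.53. With so few libraries, these are narrower than intervals from the t distribution. These intervals leave room for a smaller fall but not for one as large as in *Nr5a2* KD embryos. All 4 single KD groups share the same 2 NC libraries. In a contrast added after the data had been seen, *Nr5a2* KD embryos were set against the average of the 3 remaining single KD groups, which avoids those NC libraries, and *Eif4e* was at -2.10 on the log2 scale (SE 0.263, limma adjusted p = 0.0018), a 4.28-fold lower level. *Eif4a1*, which encodes an eIF4A helicase, was also called lower in that contrast, by 1.28 on the log2 scale (SE 0.307, adjusted p = 0.0414). In NC embryos of this experiment it had a mean of 46.3 FPKM, below its paralog *Eif4a2* with 126 FPKM, which was not called. The 2 of 48 genes called, *Eif4e* and *Eif4a1*, stand beside a background of 3.16% of all genes called lower and 0.787% higher (80 higher and 321 lower, against 220 and 362 with median-ratio scaling and 260 and 378 with quantile normalization).

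The multiple KD embryos gave the same order of *Eif4e* levels. In 3KD embryos that lacked *Nr5a2* siRNA, *Eif4e* had 376 and 527 FPKM, beside 349.5 and 365 FPKM in NC. 3KD embryos without *Rarg* siRNA had 154 and 252 FPKM, those without *Nr1h3* siRNA 213 and 201 FPKM, and those without *Nr2c2* siRNA 162 and 198 FPKM. All 6 libraries that contained *Nr5a2* siRNA were below the 4 that did not. In this experiment the differences from NC did not pass the test (-0.85, -0.79 and -0.99 on the log2 scale, SE 0.397, limma adjusted p of 0.802, 0.763 and 0.58), and neither did that of the embryos without *Nr5a2* siRNA (0.32, adjusted p = 1). Embryos spared *Nr5a2* siRNA differed from the average of the remaining 3KD groups by 1.19 (SE 0.324, adjusted p = 0.186), which became 0.0177 once replicate numbers were fitted as a block. At that contrast 0.282% of all genes were called, 0.254% higher and 0.0282% lower.

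In 4KD embryos at 8C, *Eif4e* had 222 and 183 FPKM, beside 485 and 616 FPKM in NC. At 4C it had 179 and 513 FPKM in 4KD embryos and 688 and 849.8 FPKM in NC. At both stages the 4KD libraries were below the NC libraries, with a gap that was narrow at 4C because of replicate 2, the library that also kept the most *Nr5a2* RNA. The differences of -1.44 at 8C and -1.33 at 4C (SE 0.473 each) did not pass the test, with limma adjusted p-values of 0.466 and 0.809, and they differed between the stages by -0.10 (adjusted p = 1). At 2C, *Eif4e* had 237 and 136 FPKM in NC and 128 and 166 FPKM in *Nr5a2* KD embryos, which overlapped (-0.30, SE 0.412, adjusted p = 0.93).

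**Figure D1:**
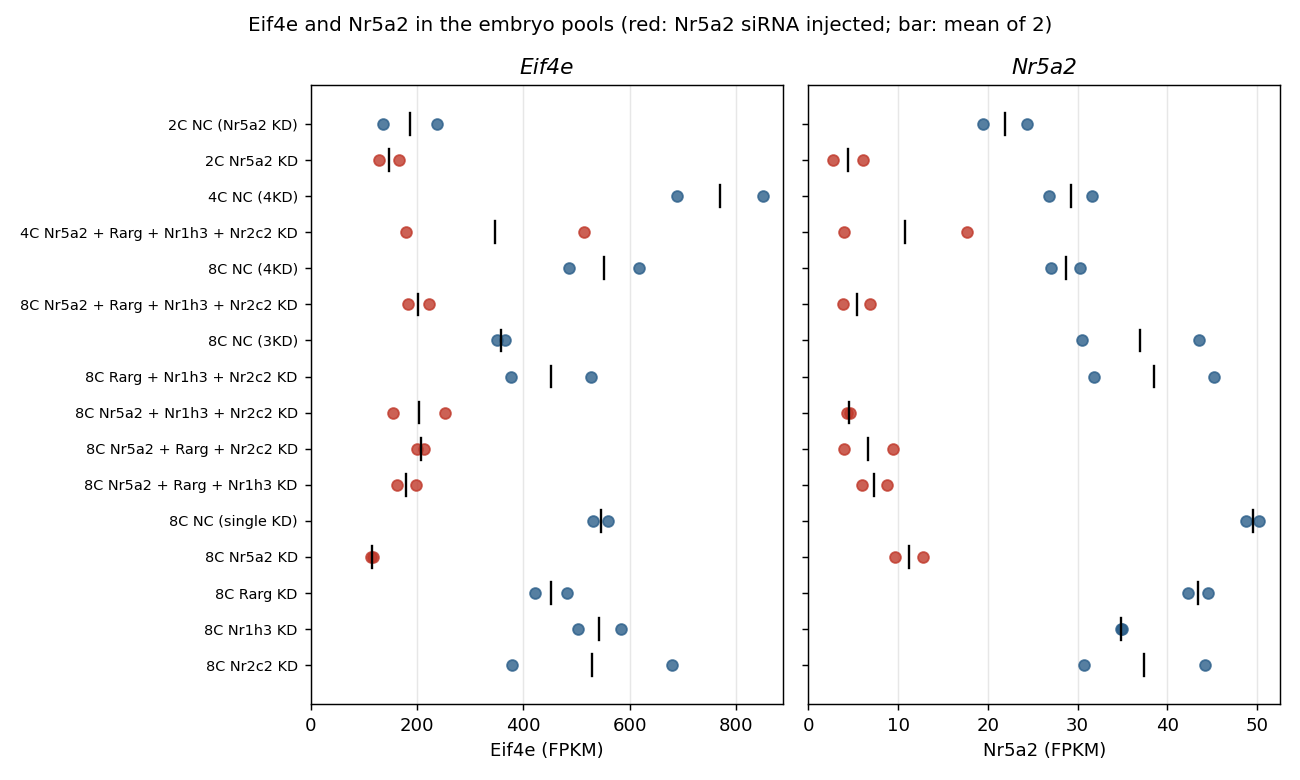
FPKM of *Eif4e* and of *Nr5a2* in each pooled library, by group (points are libraries, bars are the mean of 2, red marks groups injected with *Nr5a2* siRNA). At 8C the 10 red libraries of *Eif4e* lie between 114 and 252 FPKM and the 14 others between 349.5 and 679 FPKM.

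Over the 24 pools at 8C, *Eif4e* had 114 to 252 FPKM in the 10 libraries with *Nr5a2* siRNA (median 190.3) and 349.5 to 679 FPKM in the 14 without it (median 494). The ranges did not overlap. Of all genes tested, 0.895% had every library with the siRNA below every library without it and 0.23% had every one above. *Eif4e* was the only initiation factor gene below and none was above. A fit with a term for the experiment and a term for the presence of each siRNA over these 24 libraries, added after the data had been seen, put the difference with *Nr5a2* siRNA at -1.53 (SE 0.168, limma adjusted p = 4.88e-07), a 2.90-fold lower level. The same fit gave 0.03 for *Rarg* siRNA, 0.13 for *Nr1h3* siRNA and 0.18 for *Nr2c2* siRNA. The 3 experiments differ in the number of siRNAs injected, in their total dose and in the NC dose, and the fit takes each siRNA to have 1 effect in all of them.

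Relatives of *Eif4e* were not called in that fit, and *Eif4e3* was too low to be tested. *Eif4e2*, which encodes the 4EHP cap-binding protein, had 56.5 to 105 FPKM with *Nr5a2* siRNA (median 66.8) and 64.3 to 137 FPKM without it (median 86.8), at -0.32 (limma adjusted p = 0.214). *Eif4e1b* stayed at or below 0.795 FPKM with the siRNA and 3.69 FPKM without it, and *Eif4e3* at or below 1.08 and 1.09 FPKM. The summed FPKM of the 4 genes were 179 to 340 (median 262) with the siRNA and 431 to 775 (median 590) without it, which did not overlap. The share of *Eif4e* in that sum was 56.4 to 77.6% (median 72.1%) with the siRNA and 72.6 to 90.5% (median 84.5%) without it.

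For the inhibitors of eIF4E, the summed FPKM of the 3 4E-BP genes were 81.5 to 179 (median 158) with *Nr5a2* siRNA and 62.7 to 362 (median 141) without it. *Eif4ebp1* had 64.9 to 173 FPKM with the siRNA and 46.3 to 357 FPKM without it (-0.44, limma adjusted p = 0.198). The 4E-BP sum divided by *Eif4e* was 0.527 to 1.05 (median 0.782) with the siRNA and 0.0923 to 0.747 (median 0.328) without it. The ratios overlapped. They compare RNA levels and carry the difference in *Eif4e* itself.

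Across the 24 pools, 5 of 50 initiation factor genes tested were called with *Nr5a2* siRNA, 4 lower and 1 higher, beside 9.66% of all 11290 genes lower and 5.93% higher. The medians of the differences were -0.03 for the initiation factor genes and -0.02 for all genes. *Eif4e* had the greatest difference of the 5. Under scaling to a median ratio the calls over all genes were 978 higher and 1046 lower and under quantile normalization 1058 and 1094, against 670 and 1091 without scaling. At the limits of the study's methods (adjusted p under 0.01 and at least 2 in size on the log2 scale), 0 initiation factor genes passed in this fit, beside 0.753% of all genes lower and 0.221% higher. An unadjusted limma p under 0.05 was reached by 9 of the 50. No share of all genes at that unadjusted p is set beside this count or the later ones, so they show nothing particular to these genes.

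Apart from *Eif4e*, the 3 other lower genes overlapped between libraries with and without the siRNA. *Eif5*, the GTPase-activating protein of eIF2, had 184 to 495 FPKM with *Nr5a2* siRNA (median 356) and 280.1 to 699.7 FPKM without it (median 495), at -0.59 (SE 0.192, limma adjusted p = 0.0383). *Eif2s3x*, the X-linked gene of eIF2γ, had 25.1 to 77.3 FPKM (median 46.7) against 44.7 to 79.9 FPKM (median 60.9), at -0.53 (SE 0.162, adjusted p = 0.0261). *Eif4a1* had 19.6 to 95.0 FPKM (median 67.8) against 30.5 to 113 FPKM (median 66.7), so that its medians were alike and its call came from the comparison within experiments, at -0.60 (SE 0.201, adjusted p = 0.0438). The *Eif4a1* difference was greatest in *Nr5a2* KD embryos, which had 19.6 and 25.5 FPKM while the other 8 libraries of the single KD experiment had 30.5 to 74.1 FPKM. Compared with NC alone, *Eif4a1* in *Nr5a2* KD embryos was at -1.01 and did not pass the test (limma adjusted p = 0.18).

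*Eif2d*, which delivers tRNA to the ribosome without GTP and takes part in recycling, was the gene called higher. It had 38.1 to 82.5 FPKM with *Nr5a2* siRNA (median 66.8) and 26.8 to 62.1 FPKM without it (median 40.0). The libraries overlapped, and the difference was 0.56 (SE 0.187, limma adjusted p = 0.0437). In the 3KD experiment alone it was 1.06, 1.04 and 1.15 in the groups that contained *Nr5a2* siRNA, with adjusted p-values of 0.636, 0.632 and 0.487. In 31 alternatives at the same threshold, the calls of *Eif2d* and *Eif4a1* were each lost in 19, that of *Eif5* in 10, that of *Eif2s3x* in 2 and that of *Eif4e* in 0, and at the methods' limits all 5 were lost.

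**Figure D2:**
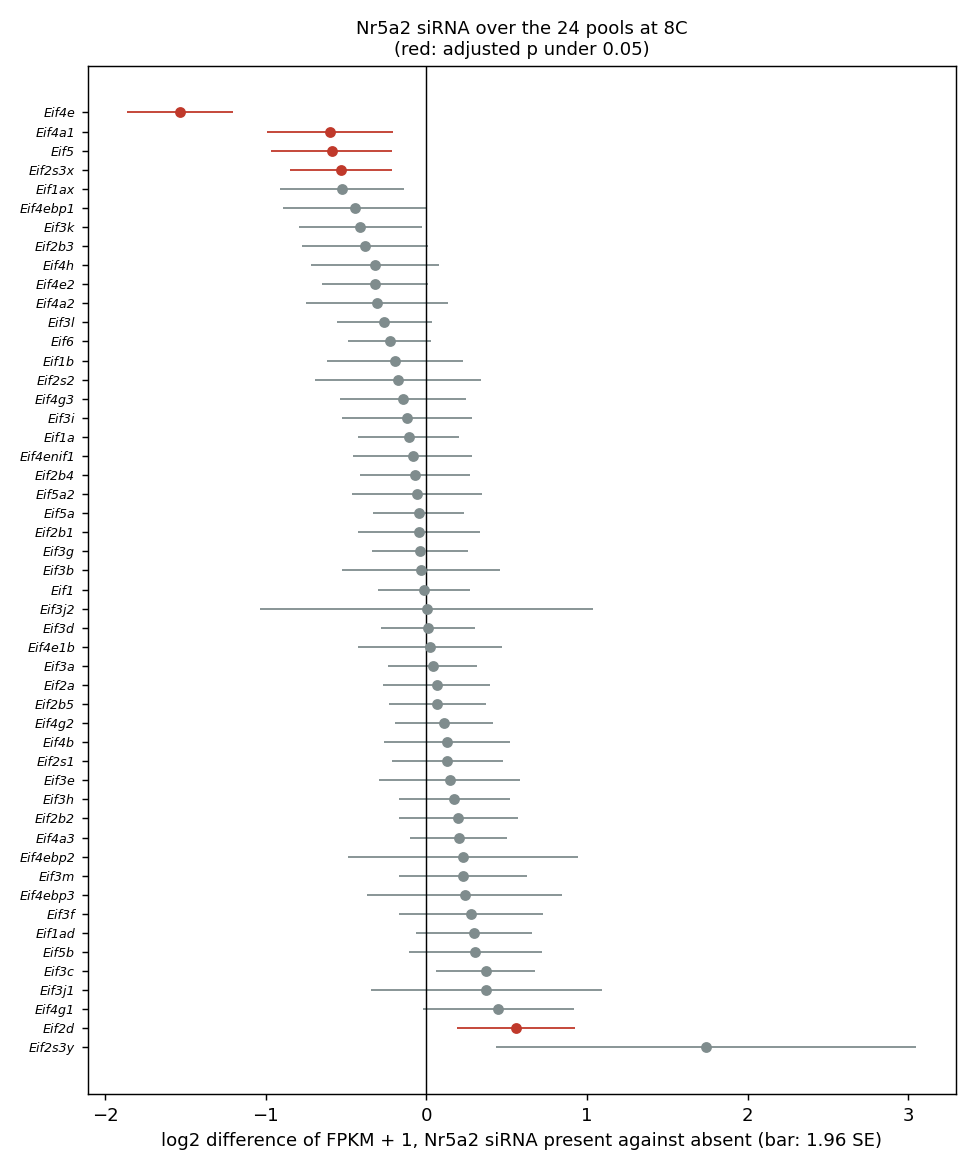
Difference on the log2(FPKM + 1) scale with *Nr5a2* siRNA present against absent for 50 initiation factor genes over the 24 pools at 8C, ordered by size, with bars that extend by the multiple of the standard error named on the axis and red for an adjusted p under 0.05. *Eif4e* at -1.53 stands below the 3 other lower genes, which lie between -0.60 and -0.53, and *Eif2d* at 0.56 is the higher one.

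By role, the genes of the large complexes were mostly not called with *Nr5a2* siRNA, beside 5.93% of all genes called higher and 9.66% lower. None of 14 genes of eIF3, the scaffold that links the small subunit to eIF4G, was called (-0.41 to 0.37, median 0.02). Of 5 genes of eIF2B 0 were called, of 4 genes of eIF1 and eIF1A 0, and of 4 genes of eIF4E-binding proteins 0. Genes near the threshold, named after their values were seen, were *Eif1ax* at -0.53 (limma adjusted p = 0.0701) and *Eif3c* at 0.37 (adjusted p = 0.113). *Eif3c* was called higher with median-ratio scaling (adjusted p = 0.0215), with quantile normalization (0.00898) and with replicate numbers as a block (0.0246). *Eif1ax* was called lower with quantile normalization (0.014) and with the block (0.0111), and *Eif3k*, at -0.41, with the block (0.00613). *Eif4g1*, the scaffold of eIF4F, was at 0.45 (adjusted p = 0.22). The share of all FPKM that fell on the initiation factor genes was 1.57 to 2.16% with the siRNA and 1.68 to 2.19% without it.

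Other genes of translation were taken as lists, in the same fit that called 5.93% of all genes higher and 9.66% lower. Of 7 genes of eIF2α kinases and their stress response, *Eif2ak4* (GCN2) was higher at 0.65 (limma adjusted p = 0.0218) and *Ppp1r15b*, which directs a phosphatase to eIF2α, was lower at -0.62 (adjusted p = 0.0386). Of 6 genes of recycling and helicases, *Mcts1*, the partner of *Denr*, was lower at -0.84 (adjusted p = 0.00389). None of 9 genes of mTOR, MNK and cap control, of 5 poly(A)-binding genes or of 9 genes of elongation and termination was called, with medians of -0.03, 0.17 and -0.01.

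Some markers of stage and of maternal RNA differed between the same libraries, beside 5.93% of all genes called higher and 9.66% lower. Of 6 maternal genes tested, only *Zp3* was called, and it was higher with *Nr5a2* siRNA (1.58, limma adjusted p = 0.000107). The summed FPKM of the maternal list were 85.8 and 135 in *Nr5a2* KD embryos, 36.0 and 44.7 in their NC, 40.6 to 188 in the multiple KD groups with the siRNA, and 29.1 to 71.04 over all 8C pools without it. Of 8 genes of the 8C list, *Krt8* (1.93), *Klf17* (1.29) and *Upp1* (2.63) were higher and none was lower, and of 3 genes of the 2C list none was called. The 8C list is not a measure of stage here. In single control embryos its summed FPKM had a median of 193 at 2C and 146 at 8C, with ranges that overlapped. Of 10 genes of cumulus and granulosa cells, which surround the oocyte, only 1 was expressed enough to be tested and it was not called, and their summed FPKM did not exceed 4.23 in any 8C pool. Relative depth was 0.669 to 0.933 in *Nr5a2* KD embryos and 0.812 to 1.16 in their NC. The part of these differences in the values of *Eif4e* was not tested.

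Among the other KD comparisons no initiation factor gene was called. The siRNAs to *Rarg*, *Nr1h3* and *Nr2c2* over the 24 pools gave 0 of 50 each, where 0, 0.0177 and 0.354% of all genes were called, and 0, 0 and 1 of the 50 had an unadjusted limma p under 0.05. As single KD they gave 0 of 48 each, where 0.00984, 0.00984 and 0.0787% of all genes were called, and 2, 0 and 1 had an unadjusted p under 0.05. The 4KD embryos gave 0 calls over all genes at 4C and at 8C, with 3 and 1 initiation factor genes at an unadjusted p under 0.05. Those 3 were *Eif2s3y*, *Eif4a2* and *Eif4e* (-3.41, -0.93 and -1.33 on the log2 scale). For 3KD embryos without *Nr5a2*, *Rarg*, *Nr1h3* or *Nr2c2* siRNA, 0, 0.0565, 0.00941 and 0% of all genes were called, and 1, 2, 2 and 3 initiation factor genes had an unadjusted p under 0.05. *Nr5a2* KD embryos at 2C gave 0.0167% of all genes and 3 initiation factor genes at an unadjusted p under 0.05. On simulated data with 200 changed genes, a log2 change of 2 was recovered for 51.5% of genes in the design of the single KD experiment, 16.5% in that of the 4KD experiment at 8C, 0.5% in that of the 3KD experiment and 0% in that at 2C, and a change of 1 for 0% in each, so a moderate change of an initiation factor gene was not detectable in these designs. In the fit over 24 pools the shares were 99% and 74%, and in the editing comparison at 8C they were 96% and 39%.

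Editing of *Nr5a2* gave no call among 50 initiation factor genes tested at 8C or 51 at 2C. At 8C, *Eif4e* had 17.3 to 441 FPKM in the 14 BE + sgRNA embryos (median 262, or 225 without the 2 libraries with 4-cell headers) and 74.3 to 642 FPKM in the 16 controls (median 354). The embryos overlapped widely, and the difference was -0.38 (SE 0.372, normal 95% interval from -1.11 to 0.35, limma adjusted p = 0.784). It was -0.24 within the run of libraries named after the editor eBE and -0.77 within that named after the editor BE4. It was -0.11 when the library of lowest FPKM sum was left out. A difference between editors was not tested. The headers name the editor for some of these libraries only, and the others were placed in a run by their library numbers. At 2C, *Eif4e* had 20.2 to 224 FPKM in BE + sgRNA embryos (median 163) and 10.1 to 386 FPKM in controls (median 92.3). The difference was 0.68 (SE 0.416, limma adjusted p = 0.528), and the 2 effects differed by -1.05 (SE 0.572, adjusted p = 0.555). *Eif4e* was also 1.05 higher in BE than in sgRNA controls at 2C (SE 0.569, limma adjusted p = 0.635). The same control difference at 8C was 0.64 (SE 0.508, adjusted p = 0.634). At 2C, control group and run were partly mixed. The BE controls held 4 eBE and 4 BE4 libraries. The sgRNA controls held 4 eBE libraries, 3 outside both runs and 1 with the 4-cell header. The BE + sgRNA embryos held 6 eBE and 8 BE4 libraries. Editing was set against the average of both control groups, so its size depends on the control used. Among the alternatives run, the smallest 2C editing difference was 0.15 and the largest 1.20. Over all genes, 0.133% were called higher and 0.0307% lower at 8C and 0.00805% were called at 2C, and 0 and 3 initiation factor genes had an unadjusted p under 0.05. Summed maternal genes were 49.9 to 289.7 FPKM in BE + sgRNA embryos at 8C (up to 217 FPKM without those 2 libraries) and 10.9 to 142 FPKM in the controls. Without the libraries whose headers name the 4-cell stage, the number of initiation factor genes called was again 0.

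Most initiation factor genes were higher at 8C than at 2C. In the 16 control embryos at 8C against the 16 at 2C (BE and sgRNA groups together), 37 of 51 initiation factor genes were higher and 4 were lower, beside 28.9% of all 12991 genes higher and 43.6% lower. The median difference was 1.52 on the log2 scale for the initiation factor genes and -0.31 for all genes. With median-ratio scaling, 36 were higher and 7 lower, with medians of 1.31 and -0.49, and with quantile normalization 35 and 7, with medians of 0.99 and -0.01. Over all genes the split of calls was 3753 higher and 5668 lower, against 3260 and 6582 and against 4540 and 4341 under these scalings. The initiation factor genes took 0.704 to 1.63% of all FPKM in 2C controls and 1.70 to 2.19% in 8C controls, which did not overlap. The number called was 41 also without the libraries with 4-cell headers and with the run of libraries as a term. FPKM are relative to all RNA in the library, and the amount of RNA per embryo was not measured.

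Genes of eIF3 subunits rose. Of 14 genes, 12 were higher at 8C, and *Eif3j1* and *Eif3j2* were not called. *Eif3d*, whose protein can itself bind the cap of some mRNAs, had 0.578 to 53.4 FPKM at 2C (median 4.80) and 27.6 to 279 FPKM at 8C (median 204), at 4.26 (limma adjusted p = 1.08e-13). *Eif3g* went from a median of 25.1 to 347 FPKM (3.49), *Eif3l* from 13.9 to 270 FPKM (3.22) *Eif3e* from 23.5 to 277 FPKM (3.00) and *Eif3k* from 46.9 to 336 FPKM (2.92). In these genes the lowest 8C embryos still overlapped the highest 2C embryos. *Eif3j1* and *Eif3j2* are near-identical copies, and reads could be split between them in counting. In 1 library, 3KD without *Nr1h3* siRNA replicate 1, *Eif3j1* had 27.2 FPKM and *Eif3j2* 0.126 FPKM, so their separate values are uncertain.

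Genes of eIF2B, the exchange factor, rose as well. All 5 eIF2B genes were higher, led by *Eif2b3*, a catalytic-arm subunit, with 0.986 to 38.7 FPKM at 2C (median 4.99) and 21.2 to 191 FPKM at 8C (median 109), at 3.66 (limma adjusted p = 3.68e-12). Of the eIF2 genes, *Eif2s2*, which encodes eIF2β, had 12.02 to 169 FPKM at 2C (median 24.9) and 142 to 460 FPKM at 8C (median 262), at 2.98 (adjusted p = 3.81e-16). *Eif2s3x* went from a median of 7.20 to 56.0 FPKM (2.83), and *Eif2s3y* was at 1.52 and not called (adjusted p = 0.0681), though it was called with median-ratio scaling (0.0496) and quantile normalization (0.0299). Of 7 genes of the eIF2α kinases and their stress response, 4 were lower and none was higher, beside 43.6% of all genes lower and 28.9% higher. Among the lower ones were *Eif2ak3* (PERK) at -1.38, *Eif2ak4* at -1.02 and *Ddit3* at -2.94.

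For start site selection, *Eif1a* (1.90) and its X-linked relative *Eif1ax* (1.71) were higher while *Eif1* (-0.15, limma adjusted p = 0.601) and *Eif1b* (-0.26, adjusted p = 0.416) were not called. The latter pair was called lower with median-ratio scaling and with quantile normalization. *Eif1ax* had 24.8 to 107 FPKM at 2C (median 52.4) and 57.1 to 370 FPKM at 8C (median 176).

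In eIF4F and its helpers, 7 of 11 genes were higher and 2 lower. *Eif4h*, a cofactor of eIF4A, had 2.23 to 78.4 FPKM at 2C (median 8.13) and 67.0 to 266 FPKM at 8C (median 177), at 3.75 (limma adjusted p = 8.58e-13). *Eif4a1* was at 1.82 and *Eif4a2* at 1.01. The 3 *Eif4g* genes moved less, with *Eif4g1* at 0.72 (adjusted p = 0.00244) and *Eif4g2* (-0.08) and *Eif4g3* (-0.27) not called. These 3 depended on the scaling. The *Eif4g1* call was lost with median-ratio scaling (adjusted p = 0.0708) and quantile normalization (adjusted p = 0.199), *Eif4g2* was called lower with quantile normalization (-0.86, adjusted p = 1.03e-05), and *Eif4g3* was called lower with median-ratio scaling (-0.46, adjusted p = 0.0483) but was at 0.35 with quantile normalization.

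**Figure D3:**
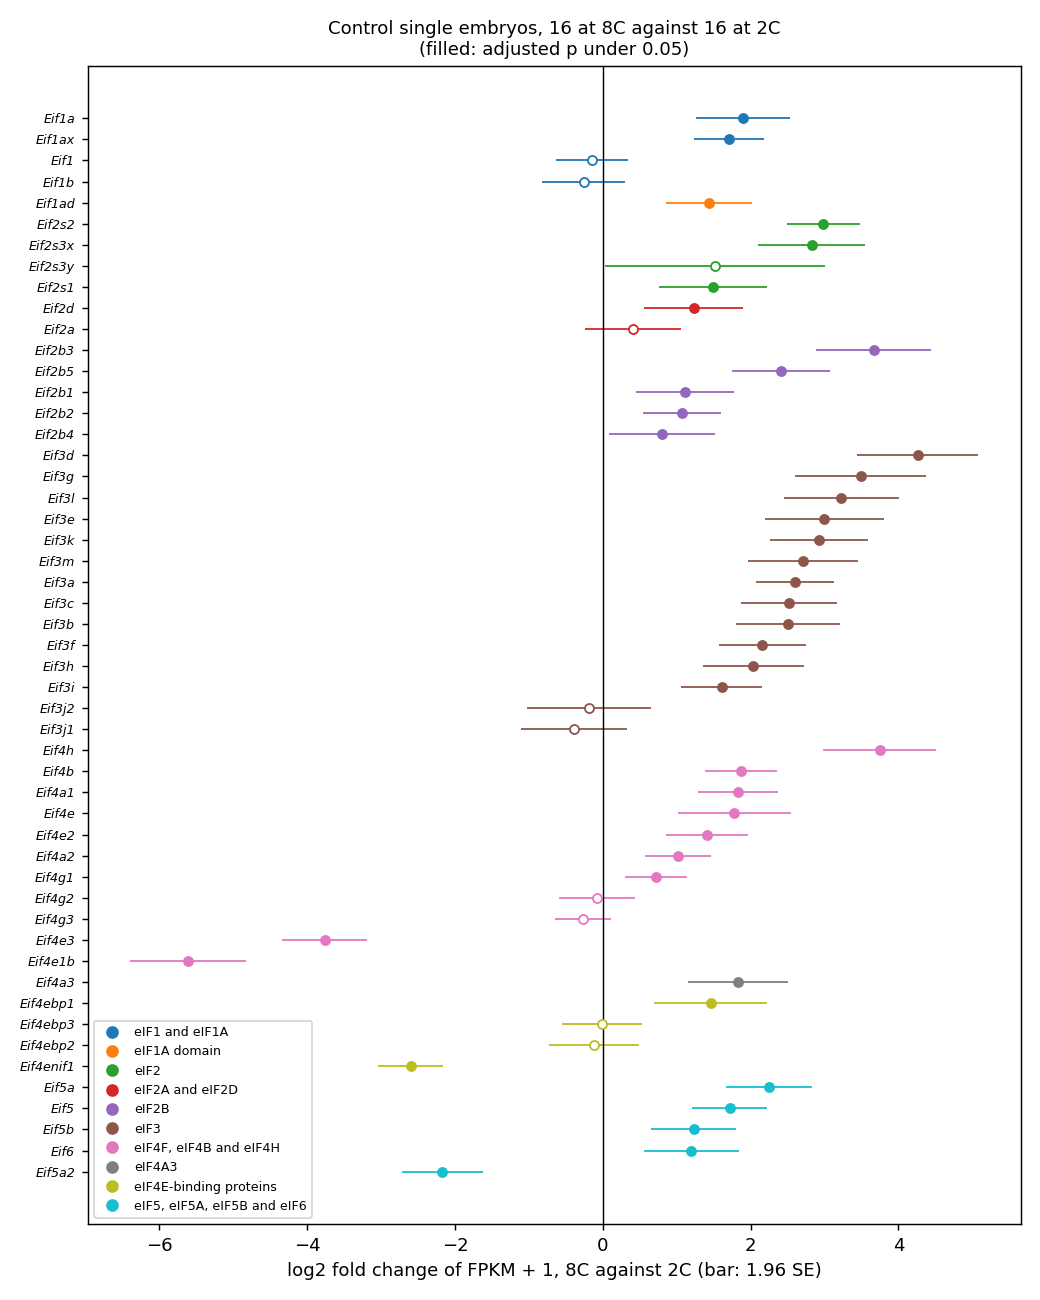
Difference on the log2(FPKM + 1) scale between 16 control embryos at 8C and 16 at 2C for each of 51 initiation factor genes, by role (filled points have an adjusted p under 0.05). Most eIF3, eIF2 and eIF2B genes lie above 0, and *Eif4e1b*, *Eif4e3*, *Eif4enif1* and *Eif5a2* are the filled points below it.

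The eIF4E genes changed places between the stages. *Eif4e1b*, the oocyte relative, had 1.42 to 342 FPKM in 2C controls (median 113) and 0 to 4.02 FPKM at 8C (median 0.586), at -5.61 (SE 0.399, limma adjusted p = 4.37e-19), the largest fall of the 51. The lowest 2C value belongs to the library whose header names the 4-cell stage, without which 2C embryos had at least 20.4 FPKM and no longer overlapped 8C embryos. *Eif4e3* had 1.99 to 79.2 FPKM at 2C (median 20.8) and 0 to 1.74 FPKM at 8C (median 0.392), at -3.77 (adjusted p = 1.46e-17), without overlap. Without the library with the 4-cell header its lowest 2C value was 5.03 FPKM. *Eif4e* rose by 1.78 (adjusted p = 6.22e-05) and *Eif4e2* by 1.41, with embryos that overlapped. In the pools, *Eif4e1b* was already at a mean of 0.602 FPKM in NC embryos at 4C.

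As shares of the summed FPKM of the 4 genes, *Eif4e1b* held 1.04 to 77.4% in 2C controls (median 46.1%) and 0 to 2.50% in 8C controls. The lowest of the 2C shares came from the library with the 4-cell header. Without it the shares were 3.93 to 77.4% (median 48.5%) and did not overlap those at 8C. *Eif4e* held 5.66 to 75.7% (median 27.8%, or 24.2% without that library) at 2C and 56.4 to 89.6% (median 83.3%) at 8C, and *Eif4e2* had a median of 16.4% at 8C. At 8C, *Eif4e* was thus the most abundant of the 4 genes in every control embryo.

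**Figure D4:**
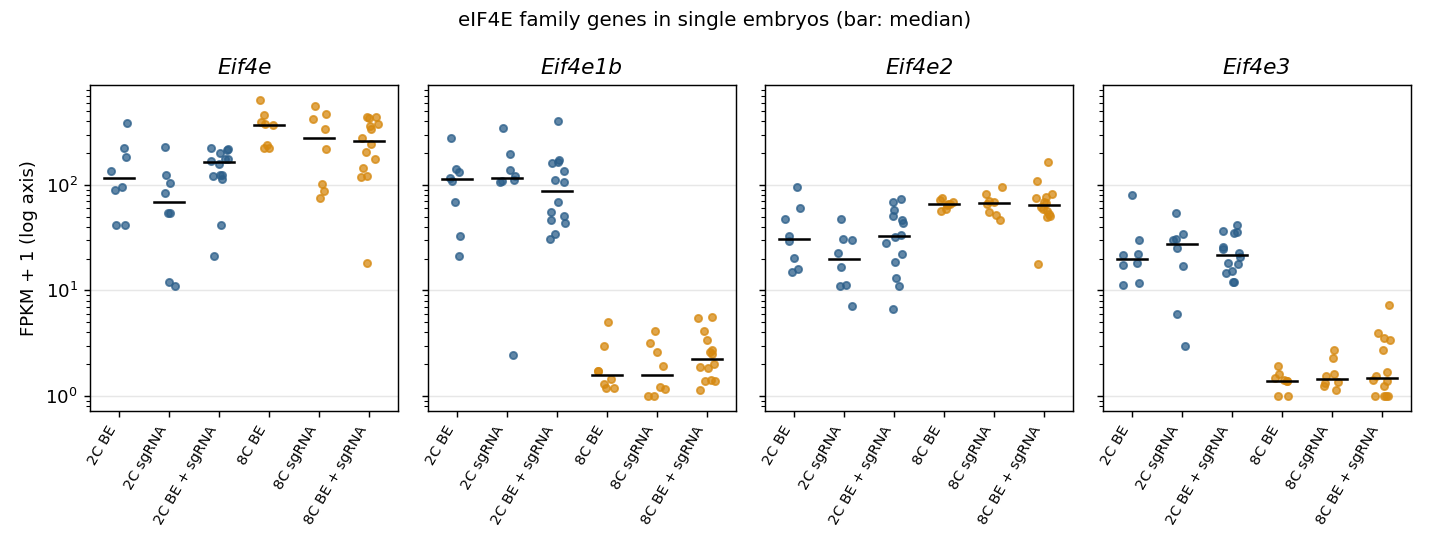
FPKM + 1 of *Eif4e*, *Eif4e1b*, *Eif4e2* and *Eif4e3* in single embryos at 2C and 8C on a log axis (points are embryos, bars are medians). *Eif4e1b* falls from a median of 113 to 0.586 FPKM in the controls, while *Eif4e* is high at 8C.

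Of the proteins that bind eIF4E, *Eif4enif1* (4E-T), which shuttles eIF4E and keeps mRNAs repressed in oocytes, had 14.02 to 65.2 FPKM at 2C (median 27.6) and 1.95 to 7.40 FPKM at 8C (median 3.42), at -2.60 (limma adjusted p = 1.26e-15), without overlap. *Eif4ebp1* was higher, from a median of 38.3 to 133 FPKM (1.46), and *Eif4ebp2* (-0.12) and *Eif4ebp3* (-0.01) were not called. The upstream list of mTOR, MNK and cap control had 2 of 9 genes higher and 5 lower, beside 28.9% of all genes higher and 43.6% lower. *Pdcd4*, an inhibitor of eIF4A, was among the lower ones at -2.18, and *Larp1*, which binds mRNAs of ribosomal proteins, was among the higher at 2.13.

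Of the late factors, *Eif5a*, whose protein carries the modified amino acid hypusine, had 57.9 to 769.8 FPKM in 2C controls (median 399) and 770.0 to 2375 FPKM in 8C controls (median 1939), at 2.25 (limma adjusted p = 1.13e-09), and was the only gene of the 51 with every 8C control above every 2C control, though by a margin of less than 1 FPKM. Over all genes, 0.87% had such a separation upwards and 2.39% downwards, and of the initiation factor genes *Eif4e3* and *Eif4enif1* were separated downwards. *Eif5a2*, its paralog, went the other way, from 1.51 to 17.9 FPKM (median 8.44) to 0.219 to 2.28 FPKM (median 0.795), at -2.17 (adjusted p = 6.27e-10), and its lowest 2C value was 2.28 FPKM without the library with the 4-cell header. *Eif5* (1.72), *Eif5b* (1.23) and *Eif6* (1.20) were higher. Of 10 genes of elongation and termination, 8 were higher (*Eef2* at 3.68, *Eef1g* at 3.53), beside 28.9% of all genes. The other 2 were lower (*Eef2k*, the inhibitory kinase of eEF2, at -1.43, and *Gspt2* at -0.70), beside 43.6% of all genes.

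Maternal genes and genes of the 2C stage moved beside these differences. At 8C, 6 of 7 maternal genes and 5 of 5 genes of the 2C list were lower, beside 43.6% of all genes. Of the 8C list, 4 of 8 genes were higher and 3 lower, beside 28.9% of all genes higher. Between NC embryos at 8C and 4C, with 2 pools each, 0 initiation factor genes were called in limma and 0 genes of all, and *Eif5a* (0.84) and *Eif4ebp3* (1.15) had an unadjusted p under 0.05.

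*Eif2s3y*, the Y-linked copy of eIF2γ, depends on the sex of the embryo. Of 30 single embryos at 8C, 15 had it at 1 FPKM or more (8.33 to 71.3 FPKM, median 47.6), all 15 also had the Y-linked gene *Ddx3y* at 1 FPKM or more, and in the other 15 both were below 1 FPKM. At 2C, 14 of 30 embryos reached 1 FPKM, of which 9 also had *Ddx3y* at that level, and 5 embryos had only 1 of these genes. The 8C embryos thus fell into a clear pair of classes.

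**Figure D5:**
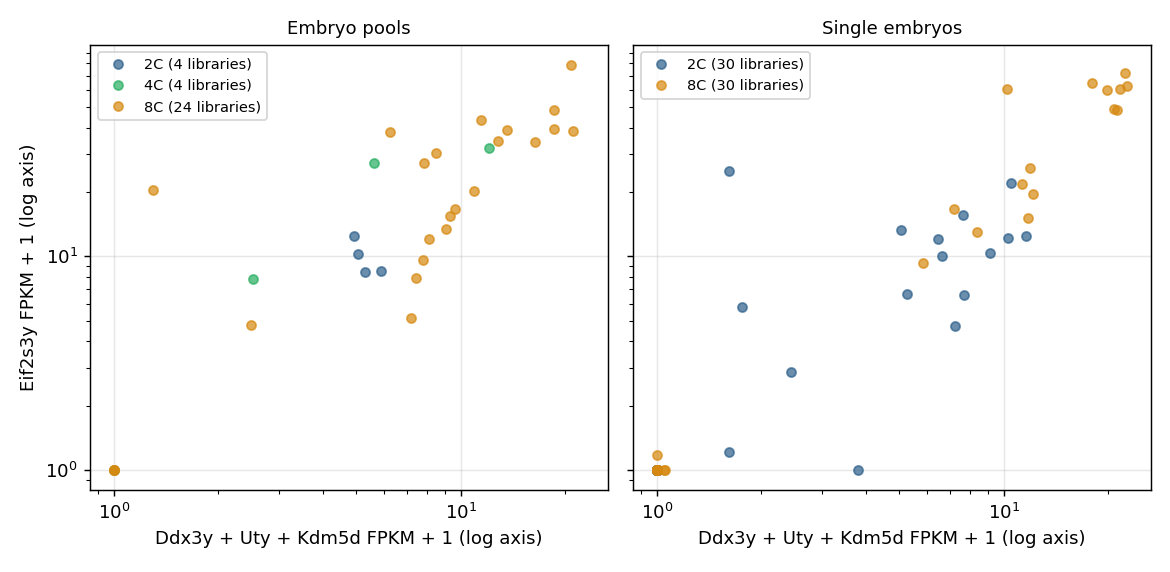
FPKM + 1 of *Eif2s3y* against the summed FPKM + 1 of *Ddx3y*, *Uty* and *Kdm5d*, both on log axes, in pools and in single embryos. Single 8C embryos lie either near 0 on both axes or with *Eif2s3y* between 8.33 and 71.3 FPKM.

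In pools *Eif2s3y* was therefore a mixture. It had 0 and 3.77 FPKM in NC embryos of the 3KD experiment, 19.4 and 29.3 FPKM in 3KD embryos without *Nr5a2* siRNA and 12.5 to 77.8 FPKM in the other 3KD groups. Its differences from NC were 3.51, 3.98, 4.66 and 3.31 on the log2 scale in the groups without *Nr5a2*, *Rarg*, *Nr1h3* and *Nr2c2* siRNA, with limma adjusted p-values of 1, 0.134, 0.0865 and 0.228. With replicate numbers fitted as a block, the last 3 had adjusted p-values of 0.0133, 0.0106 and 0.024. Across the 24 pools, *Eif2s3y* was at 1.74 with *Nr5a2* siRNA (SE 0.667, adjusted p = 0.0788) and *Ddx3y* at 1.57 (adjusted p = 0.0445). The part of the sex of the pooled embryos in these values was not tested.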

How the data were processed

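Smart-seq2 libraries were made from pools of embryos or single embryos. According to their methods, the authors trimmed paired-end reads, mapped them to mm9 with TopHat and computed the deposited FPKM with Cufflinks on refFlat, without read counts, so depth and counting intervals are unknown. The authors tested counts with edgeR, which FPKM do not allow.

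FPKM of the libraries of 1 experiment were fitted with limma 3.58.1 (R 4.3.3) on log2(FPKM + 1), which understates the change of low genes. The filter was a group mean of 1 FPKM or more in any group, variances were moderated by eBayes along a trend, and p-values were adjusted over all genes tested by the Benjamini-Hochberg method. A gene was called at an adjusted p under 0.05. Edited embryos were set against the average of both control groups. Members, gene lists and tests were chosen with earlier results of these data known. Named were genes called after KD or editing, the 8 that rose most and the 4 that fell between stages, related pairs and the most abundant gene of each role. Coordinates are from GENCODE vM1 (mm9), with coordinates for 49 of the 51 genes. Fits were tested on simulated data. Of 113 samples, 21 were not used here. Alternatives were a pseudocount of 0.1, no filter, a filter at 5 FPKM, quantile normalization, median-ratio scaling, no trend, the replicate number as a block, fewer groups per fit, the methods' limits and leaving out libraries.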

Additional observations from a re-analysis of the deposited data

Results flagged for a closer look

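In groups of 4 to 10 single embryos, a library was singled out when the highest or lowest value stood apart by Dixon's 95% limit. With 35 named genes, 140 pairs of a gene and a group were tested. This gave 5 values, and chance gives about 1 in 20 pairs. *Eif4e1b* had 1.42 FPKM in the 2C sgRNA embryo of replicate 8, whose header names the 4-cell stage, against 105.6 to 342 FPKM in the other 7. *Eif4h* had 67.0 FPKM in the 8C BE embryo of replicate 2, against 149.8 to 227 FPKM. In the 8C BE embryo of replicate 4, *Eif3e* had 138 FPKM (253 to 389 FPKM in the others) and *Eif1a* had 68.8 FPKM (95.7 to 117 FPKM). *Eif1ad* had 11.8 FPKM in the 8C sgRNA embryo of replicate 6, against 28.8 to 51.6 FPKM.

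A difference between KD groups was found by a test of that difference for *Eif4e* at -2.10 (limma adjusted p = 0.0018) and *Eif4a1* at -1.28 (limma adjusted p = 0.0414), both between *Nr5a2* KD embryos and the mean of the other 3 single KD groups at 8C, on the log2 scale.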

How the results depend on the processing

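No call reversed its direction under the alternatives run. Values that were not called did so in places, such as *Eif4e* at 2C (-0.30, at most 0.10) and in *Nr2c2* KD embryos (-0.10, at most 0.32), *Eif4g3* between stages (-0.27, at most 0.35) and the median of the initiation factor genes in *Nr5a2* KD embryos against NC (-0.22, from -0.52 to 0.09). *Eif4e* with *Nr5a2* siRNA across the 24 pools ran from -1.66 to -1.42 in 31 alternatives at an adjusted p under 0.05, with a largest limma adjusted p of 1.05e-05. Against the other single KD groups it ran from -2.24 to -1.94 in 15 alternatives (largest 0.0261), and against NC from -2.27 to -1.92 (largest 0.101). The number of initiation factor genes called was less stable. In *Nr5a2* KD embryos against NC it was 0 to 1 when 1 library was left out, with 0 without either NC library. Against the other single KD groups it was 1 instead of 2 at the methods' limits, without a filter and without a trend, and 1 to 2 when 1 library was left out. There the *Eif4a1* call was lost in 9 of 15 alternatives, with an adjusted p of 0.138 without *Nr5a2* KD replicate 1 and 0.072 without replicate 2. Across the 24 pools, 5 genes became 0 at the methods' limits, 2 without a filter, 2 without a trend, and 2 to 5 when 1 library was left out. *Eif2s3x* was lost without replicate 2 of the 3KD embryos that lacked *Nr5a2* siRNA (adjusted p = 0.0529) and without *Nr5a2* KD replicate 2 (0.137), and *Eif4a1* reached 0.191 without *Nr5a2* KD replicate 1. *Eif2b2* rested on 1 library: it was not called against the other single KD groups (0.24), was called higher at 1.22 without *Nr5a2* KD replicate 2 (adjusted p = 0.0496) and was at -0.75 without replicate 1 (adjusted p = 0.164), and across the 24 pools it was called at 0.49 without replicate 2 (adjusted p = 0.048). In control embryos the methods' limits left 21 of 41 genes (17 higher, 4 lower). In 3KD embryos without *Nr1h3* siRNA, 1 gene was called instead of 0 with only the 2 groups in the fit (*Eif2s3y*, adjusted p = 0.0455), and 0 to 1 when 1 library was left out (*Eif3j1*, adjusted p = 0.0395, without replicate 2 of that group). Where leaving out 1 library left a group with 1, that library was taken to vary like the other groups. The causes of these changes were not tested.

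The labels give groups the same replicate numbers without saying what a number shares. In the 3KD experiment libraries with the same number deviated alike (r from 0.278 to 0.513), while those of the single KD and 2C experiments did not do so throughout (lowest r -0.04 and 0.00). With replicate numbers fitted as a block, 1 gene instead of 0 was called in 3KD embryos without *Rarg*, *Nr1h3* or *Nr2c2* siRNA (*Eif2s3y*) and 1 instead of 0 in 3KD embryos without *Nr5a2* siRNA against the others (*Eif4e*). Across the 24 pools the block gave 9 genes instead of 5, adding *Eif1ax*, *Eif2s3y* (adjusted p = 0.0455), *Eif3c* and *Eif3k*. In the 4KD experiment the numbers deviated alike within a stage (0.346 and 0.336) and oppositely between stages (-0.30 to -0.27), and a block with the 4C numbers crossed, added after the data had been seen, called 0 initiation factor genes in each of its 4 comparisons. The block changed the number called in no other comparison.

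Depth could not be given for FPKM. With 2 pools per group, changes of 1 on the log2 scale were not recovered in simulated data. Single embryos vary more, and the 8C BE + sgRNA and 2C sgRNA groups hold libraries whose headers name another stage.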

Other observations

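The 2 control groups of the editing experiment, BE alone and sgRNA alone, did not differ in any gene at an adjusted p under 0.05 in limma (0 of all genes and 0 initiation factor genes at both stages). Even so, the median difference of the initiation factor genes was towards BE, by 0.45 on the log2 scale at 8C and 0.46 at 2C. These medians stayed positive under every alternative run, with lowest values of 0.02 and 0.10 and highest values of 0.89 and 0.91. The medians for editing were smaller in size, at -0.04 and 0.16. The median of all genes is not set beside these values, and whether the shift between controls is particular to these genes was not tested. At 2C the control groups also differed in the run of their libraries. At 8C, 5 initiation factor genes had an unadjusted p under 0.05 and all were higher with BE (*Eif1ax*, *Eif1b*, *Eif3d*, *Eif3e* and *Eif5*, 0.69 to 1.25 on the log2 scale). At 2C, 4 had such a p and were higher with BE (*Eif1b*, *Eif3e*, *Eif3h* and *Eif4g2*, 0.79 to 1.32). *Eif1b* and *Eif3e* were in both sets, and no share of all genes at that p is set beside these counts.

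In 2C single embryos the editing comparison had 3 initiation factor genes with an unadjusted limma p under 0.05, among them *Eif1ax* at -0.74 (adjusted p = 0.289) and *Eif5a2* at -0.72. The difference between the editing effects at 8C and 2C had 1, *Eif5a2* at 1.04 (adjusted p = 0.388), with 0.0385% of all genes called.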
